A study of Mus musculus with 7 samples.

Results

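The transporters of the blood-brain barrier were followed in a comparison of neurons isolated from the brains of mice with and without a neuronal deletion of the interleukin-4 receptor alpha chain. The genes were chosen by symbol and comprised Slc2a1, Abcb1a, Abcg2, Abcc4, Slc16a1, Slc7a5, Slc3a2, Mfsd2a, Slco1a4 and Slco1c1. All 10 were found among the 46333 gene symbols of the deposited count tables, with 1 row each, and all 10 passed the filter on low counts.

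The blood-brain barrier is formed by the endothelial cells of brain capillaries, which are sealed to each other by tight junctions and carry out little transcytosis. What these cells let through depends on membrane transporters. Carriers of the solute carrier (SLC) families bring in glucose, lactate, amino acids, lipids and hormones, while pumps of the ATP-binding cassette (ABC) families use ATP to return drugs and other lipophilic compounds to the blood. Neurons are not the main site of expression of most of these genes, although several are also found in glia, in the choroid plexus or in neurons.

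The labels gave 3 il4ra fl/fl.Syn cre+ libraries (cre+) and 4 il4ra fl/fl.Syn cre- libraries (cre-), all from neurons of mouse brain. In both genotypes a part of the il4ra gene is flanked by the sites that Cre recombines (fl/fl). Only cre+ mice carry Cre recombinase, which is driven by the synapsin 1 promoter and therefore acts in neurons. The study's methods give adult females as the source and state that recombination removes exons 7 to 9 of the gene. Cells were dissociated from whole brains, and antibodies against microglia, oligodendrocytes and astrocytes were used to remove these cells. The methods name no endothelial cells among the targets of the removal step, and the full antibody content of the kit was not examined. The study checked the isolates by flow cytometry, with an endothelial stain among others, and described them as highly enriched in neurons. Those cytometry data were not analysed here. In bulk libraries of this kind, a different number of cells of a type and a different amount of RNA per cell cannot be told apart.

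The libraries held 68213223 to 94376841 counts. The transcript of the targeted gene, Il4ra, was at 29.5, 28.7 and 24.4 CPM (counts relative to library size) in cre+ replicates 1 to 3 and at 20.03, 23.2, 29.6 and 22.4 CPM in cre- replicates 1 to 4, so that a count over the whole gene did not separate the genotypes. The 17 neuron markers examined were all detected and summed to 1624 to 3059 CPM in cre+ and 2918 to 4698 CPM in cre- libraries. The 25 markers of brain endothelial cells, all detected too, summed to 14320 to 22620 CPM in cre+ and 10320 to 14160 CPM in cre- libraries. Endothelial transcripts were thus present in every library labelled as neurons, which gives an RNA level and not a share of cells. The column headers carried codes, and no code letter occurred in both genotypes, so that a batch marked by them cannot be told apart from the genotype.

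To show the regulatory sequence next to these genes, the 250 bases before the start of each gene's principal transcript were read from GRCm39. The windows of Slc2a1, Abcb1a and Slco1a4 are shown because they lie wholly outside annotated exons and belong to an importer, an efflux pump and an organic anion carrier. They are given 5′ to 3′ on the strand of the gene, with matches to the searched motifs in capitals. The Slc2a1 window is chr4:118965658-118965907 (plus strand), the Abcb1a window chr5:8709772-8710021 (plus strand) and the Slco1a4 window chr6:141802037-141802286 (minus strand).
Slc2a1: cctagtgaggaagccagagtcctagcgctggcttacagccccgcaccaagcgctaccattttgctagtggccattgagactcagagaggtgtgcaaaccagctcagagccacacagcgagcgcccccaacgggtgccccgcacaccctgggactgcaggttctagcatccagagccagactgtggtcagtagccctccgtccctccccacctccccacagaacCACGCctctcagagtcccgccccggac
Abcb1a: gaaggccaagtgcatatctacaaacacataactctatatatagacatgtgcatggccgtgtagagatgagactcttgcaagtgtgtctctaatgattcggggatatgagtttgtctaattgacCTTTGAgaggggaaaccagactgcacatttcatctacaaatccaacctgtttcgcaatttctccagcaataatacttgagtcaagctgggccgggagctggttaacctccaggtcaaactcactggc
Slco1a4: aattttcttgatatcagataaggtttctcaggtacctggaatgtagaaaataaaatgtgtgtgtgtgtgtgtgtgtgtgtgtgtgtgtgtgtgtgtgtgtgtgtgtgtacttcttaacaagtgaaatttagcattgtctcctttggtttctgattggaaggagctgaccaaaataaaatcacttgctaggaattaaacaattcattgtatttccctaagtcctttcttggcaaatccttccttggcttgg

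Motifs were searched on both strands. They were the core of the hypoxia response element (ACGTG or GCGTG), the TCF/LEF motif of Wnt signaling (CTTTGA or CTTTGT), the ETS motif (CGGAAG) and the antioxidant response element (TGACNNNGC, which can overlap a hypoxia core). The Slc2a1 window held 1 hypoxia core, the Abcb1a window 1 TCF/LEF motif, and the Slco1a4 window none of the letters searched. Over the 10 transporters, 5 windows held a hypoxia core, against 41.3% of the 21757 windows of protein-coding genes, and 4 held a TCF/LEF motif, against 27.2%. An ETS motif was found in 1 window, against 14.3%, and an antioxidant element in 1, against 9.7%. The windows did not share a base composition. Their GC content ran from 37.6% (Slco1a4) to 66.8% (Slc16a1), around a median of 53.2% over all windows. The ratio of observed to expected CpG was 0.462 for Slc2a1, 0.325 for Abcb1a and 0 for Slco1a4, and 6 of the 10 transporters lay above the median of 0.474.

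In the comparison of genotypes, every transporter had a higher mean in cre+ than in cre- libraries, by a factor of 1.34 (Abcc4) to 2.06 (Mfsd2a). The median log2 fold change, given throughout as cre+ minus cre-, was 0.64 over the 10 transporters and -0.043 over all 21542 genes tested. The quasi-likelihood test of edgeR called none of them at an adjusted p under 0.05, and it called 0 of the 21542 genes (0.0%), with a lowest adjusted p of 0.0939 over all genes. At an unadjusted p under 0.05, 8 of the 10 transporters were higher in cre+, against 10.2% of all genes tested, and 4305 genes passed in either direction. DESeq2, the test that the study used, called 8 of the 10 as higher in cre+, against 6.7% of the genes for which it gave an adjusted p. The 2 transporters it did not call were Abcc4 and Slco1a4. In 7 of the 10, every cre+ library lay above every cre- library, against 8.94% of all genes tested, and the genotypes overlapped for Abcc4, Slco1a4 and Slco1c1. The edgeR and DESeq2 tests therefore placed the same data on different sides of the threshold, and the values of single libraries are given for each gene. Where nothing else is said, the errors of log2 fold changes are standard errors.

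**Figure D1:**
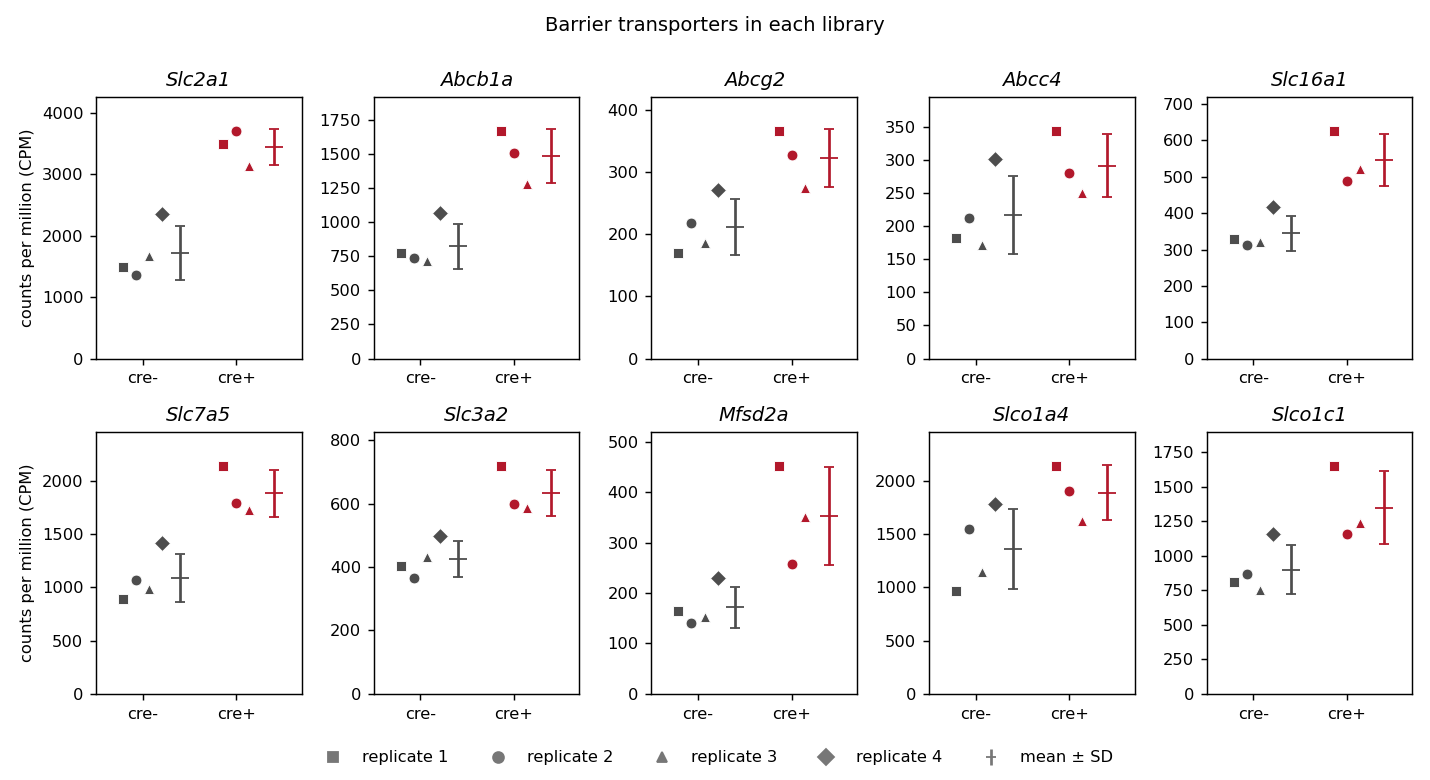
CPM (vertical axes, each from 0) of the 10 transporters in the 4 cre- (gray) and 3 cre+ (red) libraries, with symbols for the replicate number and bars for mean ± SD. Replicate 4 is the highest cre- library in all 10 panels, and replicate 1 the highest cre+ library in 9.

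Slc2a1 (ENSMUSG00000028645, chromosome 4, 118965908 to 118995180, plus strand, GRCm39) encodes GLUT1, the carrier by which glucose crosses the endothelium. Its level was 3502, 3709 and 3133 CPM in cre+ replicates 1 to 3 and 1484, 1366, 1677 and 2357 CPM in cre- replicates 1 to 4. All cre+ libraries lay above all cre- libraries, and cre- replicate 4 stood above the other cre- libraries. The cre+ libraries averaged 3448 ± 291.5 CPM (SD, n = 3) and the cre- libraries 1721 ± 443.3 CPM (SD, n = 4), and the log2 fold change was 1.0 ± 0.20 (95% interval 0.54 to 1.47). The adjusted p was 0.0939 in edgeR and 0.000172 in DESeq2. This single gene held 0.298% to 0.361% of all counts in cre+ and 0.145% to 0.244% in cre- libraries. A noncoding gene on the opposite strand, Gm12868, shares 249 exon bases with it, and the sources used here do not state whether the counting used strand.

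Abcb1a, Abcg2 and Abcc4 encode the efflux pumps. Abcb1a (ENSMUSG00000040584, chromosome 5, 8710077 to 8798575, plus strand) encodes P-glycoprotein, which returns many drugs to the blood. It was at 1670, 1505 and 1281 CPM in cre+ and at 776.5, 734.1, 715.7 and 1066 CPM in cre- libraries. The genotypes did not overlap, and cre- replicate 4 was again the closest to the cre+ libraries. The means of 1485 ± 194.9 CPM (SD, n = 3) and 823.0 ± 163.8 CPM (SD, n = 4) corresponded to a log2 fold change of 0.85 ± 0.18, and the adjusted p-values of edgeR and DESeq2 were 0.0939 and 0.000476. Its near-identical copy Abcb1b was at only 4.57 ± 0.924 CPM (SD, n = 3) and 3.12 ± 0.792 CPM (SD, n = 4), so that per kb of transcript Abcb1a exceeded it 166-fold to 411-fold. Reads of so similar genes may have been divided unevenly. A transcript of unsettled status on the opposite strand, Gm42686, shares 553 exon bases with Abcb1a.

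Abcg2 (ENSMUSG00000029802, chromosome 6, 58561508 to 58672661, plus strand) encodes the breast cancer resistance protein, a pump that works beside P-glycoprotein. Its level was 366.0, 327.3 and 274.0 CPM in cre+ and 168.9, 218.4, 185.1 and 270.8 CPM in cre- libraries. The lowest cre+ library, replicate 3, was barely above the highest cre- library, replicate 4. The log2 fold change was 0.61 ± 0.18, and the adjusted p-values of edgeR and DESeq2 were 0.123 and 0.0246. Abcc4 (ENSMUSG00000032849, chromosome 14, 118720104 to 118943631, minus strand) encodes MRP4, a pump of organic anions and nucleotide analogs. It was at 343.7, 280.5 and 249.8 CPM in cre+ and at 181.8, 212.7, 171.8 and 301.0 CPM in cre- libraries. Here cre- replicate 4 lay above cre+ replicates 2 and 3, and the log2 fold change was 0.43 ± 0.21 with a 95% interval of -0.04 to 0.89. The adjusted p was 0.289 in edgeR and 0.192 in DESeq2. Noncoding genes on the opposite strand share 53 exon bases with Abcg2 (Gm35077) and 186 with Abcc4 (Gm62320).

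Slc16a1 (ENSMUSG00000032902, chromosome 3, 104545984 to 104565778, plus strand) encodes MCT1, which carries lactate, pyruvate and ketone bodies. It was at 626.7, 488.5 and 522.4 CPM in cre+ and at 328.2, 311.6, 321.2 and 416.0 CPM in cre- libraries, without overlap. Replicates 1 to 3 of the cre- group were close together, and replicate 4 stood apart from them. The log2 fold change was 0.67 ± 0.14, and the adjusted p-values of edgeR and DESeq2 were 0.0939 and 0.00156. Bsg, which encodes basigin, the chaperone that takes MCT1 to the membrane, was at 5797 ± 1808 CPM (SD, n = 3) and 3879 ± 591.1 CPM (SD, n = 4). Its ratio to Slc16a1 per kb of transcript was 23.7 to 32.0 over the 7 libraries, with no order by genotype.

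Slc7a5 and Slc3a2 encode the light chain LAT1 and the heavy chain CD98 of the exchanger for large neutral amino acids, which also carries L-DOPA and thyroid hormone. Slc7a5 (ENSMUSG00000040010, chromosome 8, 122607889 to 122634433, minus strand) was at 2138, 1792 and 1723 CPM in cre+ and at 887.7, 1071, 983.7 and 1413 CPM in cre- libraries. Slc3a2 (ENSMUSG00000010095, chromosome 19, 8684246 to 8700733, minus strand) was at 717.7, 597.5 and 585.1 CPM in cre+ and at 404.4, 365.4, 431.9 and 498.1 CPM in cre- libraries. For both chains the genotypes did not overlap, cre+ replicate 1 was the highest library and cre- replicate 4 the highest of its group. The log2 fold change was 0.79 ± 0.18 for Slc7a5 and 0.58 ± 0.14 for Slc3a2. The adjusted p was 0.0963 in edgeR and 0.00144 in DESeq2 for Slc7a5, and 0.0984 and 0.00438 for Slc3a2. Per kb of transcript, the ratio of light to heavy chain was 2.16, 2.18 and 2.14 in the cre+ libraries, against 1.59, 2.13, 1.65 and 2.06 in the cre- libraries. Every cre+ ratio lay above every cre- ratio, but replicates 2 and 4 of the cre- group came close to them. Slc3a2 shares 743 exon bases with the noncoding gene Snhg1 on the opposite strand. Snhg1 itself was at 12.7 ± 0.884 CPM (SD, n = 3) and 15.2 ± 1.61 CPM (SD, n = 4), far below Slc3a2.

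Mfsd2a (ENSMUSG00000028655, chromosome 4, 122840643 to 122854981, minus strand) encodes the carrier of lysophosphatidylcholine with docosahexaenoic acid, and it is also known to keep transcytosis in brain endothelium low. It was at 451.4, 257.3 and 351.2 CPM in cre+ and at 163.4, 140.7, 152.1 and 230.0 CPM in cre- libraries. The genotypes did not overlap, although cre+ replicate 2 was closer to cre- replicate 4 than to cre+ replicate 3. The cre+ libraries averaged 353.3 ± 97.0 CPM (SD, n = 3) and the cre- libraries 171.5 ± 40.03 CPM (SD, n = 4), and the log2 fold change of 1.04 ± 0.22 was the largest among the transporters. The adjusted p was 0.0939 in edgeR and 0.00105 in DESeq2. The noncoding gene 4933421A08Rik on the opposite strand shares 131 exon bases with it.

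Slco1a4 and Slco1c1 encode the organic anion carriers Oatp1a4 and Oatp1c1, of which the latter brings thyroxine into the brain. Slco1a4 (ENSMUSG00000030237, chromosome 6, 141751166 to 141801925, minus strand) was at 2139, 1908 and 1627 CPM in cre+ and at 966.0, 1549, 1149 and 1782 CPM in cre- libraries. The genotypes overlapped, with cre- replicate 4 above cre+ replicate 3, and the log2 fold change was 0.47 ± 0.22 with a 95% interval of -0.03 to 0.98. The adjusted p was 0.278 in edgeR and 0.145 in DESeq2. Slco1c1 (ENSMUSG00000030235, chromosome 6, 141470094 to 141515903, plus strand) was at 1647, 1154 and 1237 CPM in cre+ and at 812.7, 868.8, 753.9 and 1156 CPM in cre- libraries. Its overlap came from cre+ replicate 2 and cre- replicate 4, which had nearly the same level. The log2 fold change was 0.58 ± 0.19, and the adjusted p-values of edgeR and DESeq2 were 0.156 and 0.0359. These genes lie near each other on chromosome 6 and belong to 1 family, so reads may be shared among its members.

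The DESeq2 calls were examined with each library left out in turn. Slc2a1, Abcb1a, Slc16a1, Slc7a5, Slc3a2 and Mfsd2a were called in all 7 of these fits. Abcg2 was not called in 5 of them, when cre+ replicate 1 or 2 or cre- replicate 1, 2 or 3 was left out. Slco1c1 was not called in 5 either, when cre+ replicate 1 or 3 or cre- replicate 1, 2 or 3 was left out. Abcc4 and Slco1a4 were called only without cre- replicate 4, when 10 transporters passed and all 10 were free of overlap. Over all genes DESeq2 then called 2210 in either direction, against 1990 with every library kept. Without both cre+ replicate 1 and cre- replicate 4, DESeq2 called 9 transporters and 1845 genes in all. The median log2 fold change of the transporters was then 0.66, and edgeR called none of them, with 10 at an unadjusted p under 0.05. For these reduced fits, shares of all genes free of overlap or at an unadjusted p were not computed. Freedom from overlap is easier to reach with fewer libraries.

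To compare the transporters with each other, CPM were divided by the length of the principal transcript. In the cre- libraries Slc2a1 had the highest mean level, 387.1 ± 99.7 CPM per kb (SD, n = 4). It was followed by Slco1a4 with 343.5 ± 93.7 and Slc7a5 with 309.6 ± 65.05 CPM per kb. These neighbors overlapped and changed places between libraries. Slco1c1 (207.5 CPM per kb), Slc3a2 (166.3) and Abcb1a (162.9) came next and overlapped in turn, then Mfsd2a (79.8) and Slc16a1 (74.8). Abcg2 with 39.1 ± 8.35 and Abcc4 with 36.1 ± 9.77 CPM per kb held ranks 9 and 10 in each of the 7 libraries, although their ranges across libraries overlapped. In the cre+ libraries Slc2a1 had 775.7 ± 65.6 CPM per kb (SD, n = 3), above Slc7a5 (535.8) and Slco1a4 (477.2), and Abcb1a (294.0) stood above Slc3a2 (247.9).

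**Figure D2:**
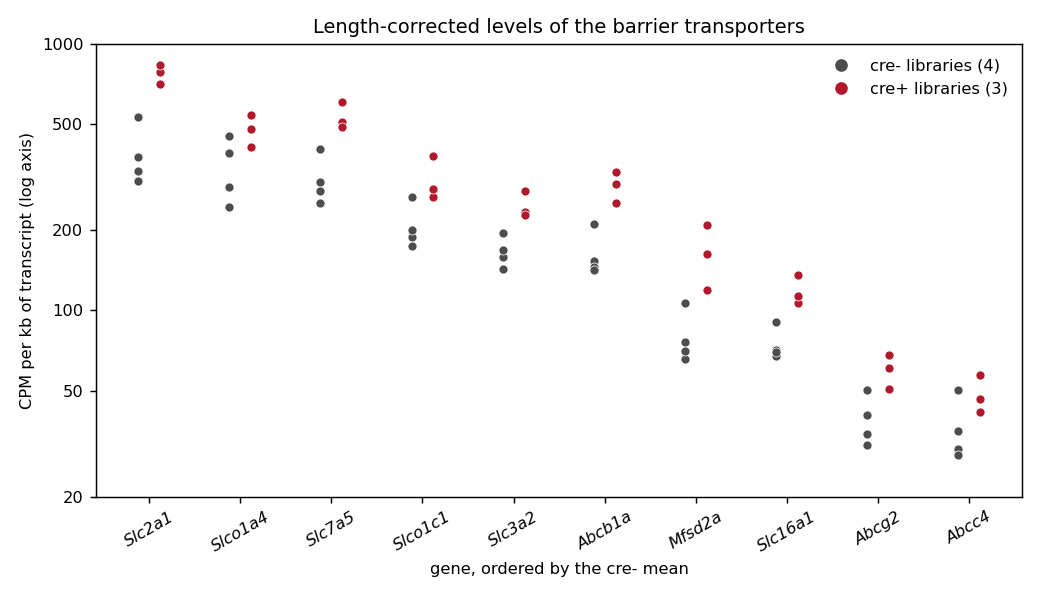
CPM per kb of transcript (log axis) of each transporter in the 4 cre- (gray) and 3 cre+ (red) libraries, ordered by the cre- mean. Slc2a1 leads with cre- and cre+ means of 387.1 and 775.7, and Abcc4 is lowest with 36.1 and 48.5.

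The transporters varied together across single libraries. As the mean over the 10 genes of log2 CPM minus the gene's cre- mean, they stood at 0.93, 0.64 and 0.58 in cre+ replicates 1 to 3, against -0.18, -0.08, -0.14 and 0.40 in cre- replicates 1 to 4. The highest cre+ library was replicate 1, which was the highest of all 7 libraries for 9 transporters, while Slc2a1 peaked in replicate 2. In the cre- group, replicate 4 was the highest library for all 10. Against cre- replicates 1 to 3, the lowest cre+ library was higher for all 10 transporters. In sum the 10 genes took 1.27%, 1.17% and 1.04% of all counts in the cre+ and 0.605%, 0.733%, 0.690% and 0.983% in the cre- libraries.

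Markers of endothelial cells had the same highest library in each group, while the order of the other libraries differed. The 25 endothelial markers, none of them a transporter of the set, stood at 0.95, 0.39 and 0.40 in the cre+ libraries on the same measure, against -0.16, -0.13, -0.05 and 0.34 in the cre- libraries. All 25 had a positive log2 fold change, with a median of 0.62 and a range of 0.32 to 0.78. DESeq2 called 17 of them as higher in cre+ and edgeR none, with 20 at an unadjusted p under 0.05. Among them, Cdh5, the cadherin of endothelial junctions, was at 558.9 ± 128.3 CPM (SD, n = 3) and 342.6 ± 49.8 CPM (SD, n = 4), and Ocln, which encodes occludin, at 245.3 ± 44.2 and 147.3 ± 27.6 CPM. Both are among the markers with the smallest edgeR p. In 14 of the 25, every cre+ library lay above every cre- library, against 8.94% of all genes tested. Cldn5, which encodes claudin-5, overlapped, at 3848, 1636 and 1783 CPM in cre+ and at 1869, 1647, 1752 and 2113 CPM in cre- libraries. Its log2 fold change was 0.39 ± 0.29, and the adjusted p-values of edgeR and DESeq2 were 0.494 and 0.365. Neuron markers had the opposite sign, at -1.37, -0.50 and -0.25 in the cre+ libraries, against 0.39, -0.02, 0.02 and -0.39 in the cre- libraries. The library with the most transporter and endothelial transcripts in each group, cre+ replicate 1 and cre- replicate 4, was also the one with the lowest level of neuron markers. Of the 17 neuron markers, DESeq2 called 6 as lower in cre+ and none as higher.

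**Figure D3:**
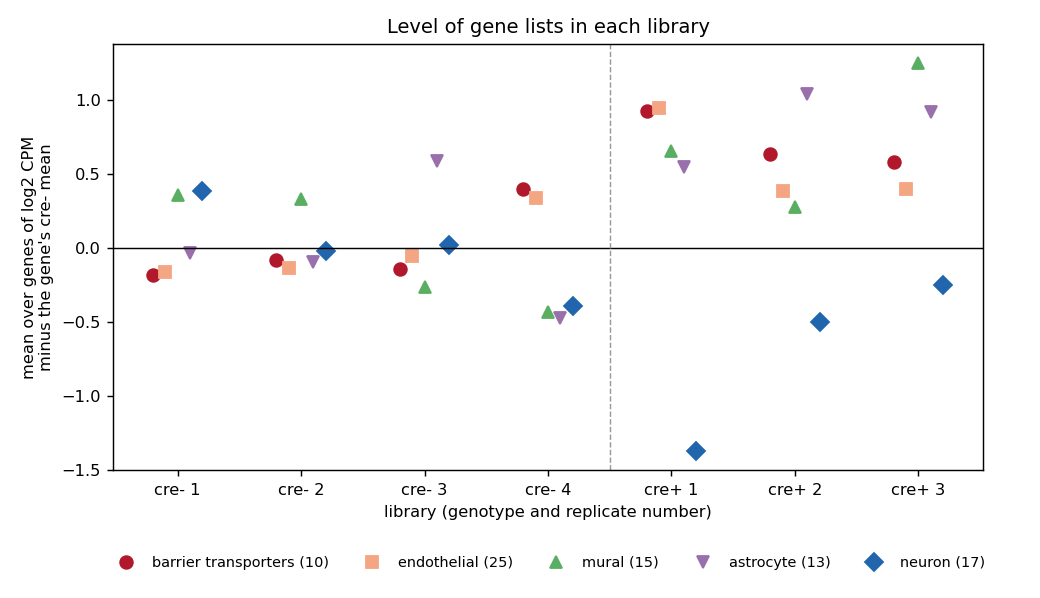
Mean over the genes of a list of log2 CPM minus the gene's cre- mean (vertical axis) in each library (horizontal axis), with the number of genes in parentheses (mural with Tagln). The transporters (red circles) and endothelial markers (orange squares) are both highest in cre+ replicate 1, at 0.93 and 0.95, where the neuron markers (blue diamonds) are lowest, at -1.37.

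Marker lists of other cells had positive medians as well. For 15 mural markers the median log2 fold change was 0.73, with 8 called by DESeq2, and their summed level was 661.9 to 935.1 CPM in cre+ and 439.5 to 620.3 CPM in cre- libraries. It was 0.97 with 5 called for 12 fibroblast markers, 0.66 with 5 called for 13 astrocyte markers and 0.66 with 3 called for 12 oligodendrocyte markers. It was 0.41 with 0 called for 12 microglia markers, and 0.78 with 0 called for 10 choroid plexus markers, in which 0 and 3 passed an unadjusted p under 0.05 in edgeR. All markers of these 6 lists passed the filter on low counts. The mural marker Tagln was at 0 in 4 libraries, and no other marker of the 6 lists was at 0 in any library. None of the 6 lists had its highest library in cre+ replicate 1, where 9 transporters peaked. Mural markers were at 0.66, 0.28 and 1.25 in cre+ replicates 1 to 3 and lowest in cre- replicate 4 (-0.43). Without Tagln, a check chosen after seeing the data, they were at 0.95, 0.54 and 1.09 in cre+ and at -0.22 in cre- replicate 4. In cre+ replicate 1 they were then level with the endothelial markers, which also stood at 0.95. Oligodendrocyte markers were at -0.44 in cre+ replicate 1. The part that the content of endothelial or other cells played in the genotype difference of the transporters was not tested, but a scale set by endothelial transcripts was computed.

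On that scale, the libraries were scaled so that the median of the 25 endothelial markers was level, and the same edgeR test was run. The transporters then had log2 fold changes of -0.16 (Abcc4) to 0.45 (Slc2a1), 6 of them positive and 4 negative, with a median of 0.05. All genes tested had a median of -0.64, and the endothelial markers themselves ran from -0.32 to 0.20. Slc2a1 was at 2173, 3321 and 2768 CPM of this scale in the cre+ libraries, against 1973, 1815, 2061 and 2211 in the cre- libraries. The libraries now overlapped, as cre+ replicate 1 was below cre- replicate 4, and the log2 fold change was 0.45 ± 0.20 (95% interval 0.02 to 0.89). Mfsd2a was at 280.1, 230.4 and 310.3 in the cre+ libraries, against 217.3, 187.0, 187.0 and 215.7 in the cre- libraries, still without overlap, with 0.44 ± 0.18 (95% interval 0.04 to 0.84). These were the 2 transporters at an unadjusted p under 0.05, against 0.102% of all genes in that direction, and their adjusted p in edgeR was 0.119 and 0.106. Shares of all genes on this scale are low in part because it set most genes below 0. Values above theirs also occurred in lists of other cells. Mural markers ran from -1.06 to 1.28 and fibroblast markers from 0.06 to 1.59. DESeq2 called 0 transporters on this scale, against 0.0376% of genes, with 0.0934 for Slc2a1 and 0.0811 for Mfsd2a.

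Abcb1a, with 1036, 1348 and 1132 in the cre+ libraries and 1032, 975.4, 879.8 and 999.6 in the cre- libraries, was the other transporter without overlap on the endothelial scale, where 0.223% of all genes had every cre+ library higher. Its log2 fold change was 0.27 ± 0.18. Slc7a5 had 0.21 ± 0.18, and Abcg2, Slc16a1, Slc3a2 and Slco1c1 had 0.03, 0.07, -0.02 and -0.02. For those 4 genes the 95% intervals together ran from -0.40 to 0.44, which leaves differences of that size unresolved. The spread between animals of 1 genotype was smaller on this scale. The coefficient of variation within the cre- group fell for all 10 transporters, from a median of 21.1% to 8.57%, and within the cre+ group for 8, from a median of 13.3% to 11.4%. The exceptions were Slc2a1, which went from 8.46% to 20.8% in cre+, and Abcb1a.

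**Figure D4:**
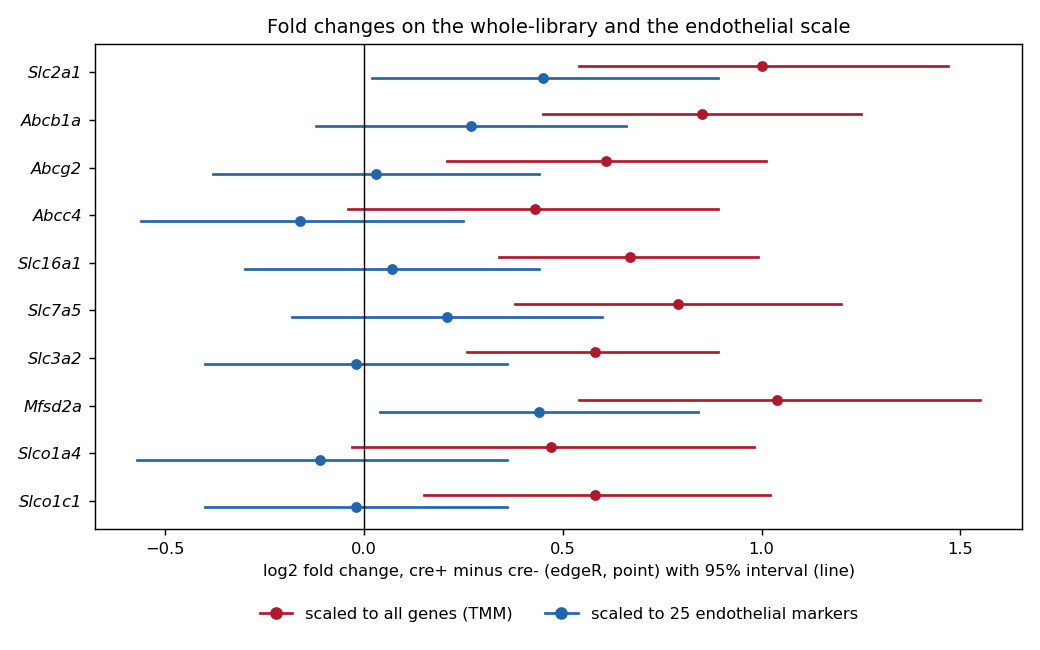
Log2 fold change of each transporter (points) with its 95% interval (lines) from edgeR, with libraries scaled to all genes (red) or to the 25 endothelial markers (blue). On the endothelial scale the values center near 0 with a median of 0.05, and the intervals of Slc2a1 and Mfsd2a alone stay above 0.

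Other genes of the barrier showed differences of a similar size. Of 19 further barrier transporters, 11 were higher in cre+ at an unadjusted p under 0.05 in edgeR, 6 were called by DESeq2, and the median log2 fold change was 0.52. Slc39a10 and Slc30a1, a zinc importer and a zinc exporter, had 0.60 ± 0.16 and 0.66 ± 0.18, and the glutamine carrier Slc38a3 had 0.59 ± 0.17. Of 20 regulators of the barrier, mostly of the Wnt pathway, DESeq2 called 11 as higher and the median was 0.57. Lrp5, a Wnt co-receptor, was at 199.1, 199.2 and 171.1 CPM in cre+ and at 117.6, 107.5, 119.9 and 134.6 CPM in cre- libraries, and its adjusted p was 6.15e-05 in DESeq2 and 0.0939 in edgeR. Lrp6, its relative, had a log2 fold change of 0.58 ± 0.11, and Nkd1, a feedback inhibitor induced by Wnt signals, had 0.80 ± 0.17. Of 12 tight junction genes, DESeq2 called 6 as higher, with a median of 0.61, among them Tjp1 (ZO-1) with 0.63 ± 0.14 and Jam2 with 0.60 ± 0.13. Of 13 genes of caveolae and receptor-mediated transcytosis, it called 4, with a median of 0.47, and Cav1, the main protein of caveolae, had 0.80 ± 0.19. On the endothelial scale the medians of these 4 lists lay between -0.16 and 0. Markers of other cells had medians of 0.44 (fibroblast), 0.26 (choroid plexus), 0.12 (oligodendrocyte), 0.11 (mural), 0.08 (astrocyte) and -0.18 (microglia) on it. The median of the neuron markers was -1.13.

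Relatives of the transporters in the same families had smaller medians. The median log2 fold change was 0.14 for 11 other glucose carriers, and DESeq2 called none. Slc2a3, which encodes GLUT3, the glucose carrier of neurons, was at 19.1, 32.6 and 35.97 CPM in cre+ and at 67.2, 48.7, 52.0 and 30.04 CPM in cre- libraries. It was lowest in cre+ replicate 1 and, within the cre- group, in replicate 4, the libraries in which most transporters of each group were highest. Its log2 fold change was -0.76 ± 0.29, and the adjusted p-values of edgeR and DESeq2 were 0.205 and 0.0776. The median was 0.09 for 13 other ABC pumps, of which DESeq2 called Abcg3 as higher and Abcc5 and Abcc10 as lower in cre+. Abcc5, or MRP5, was at 157.5 ± 21.4 CPM (SD, n = 3) and 221.0 ± 29.3 CPM (SD, n = 4), which was the opposite direction to its relative Abcc4.

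Among 14 relatives of Slc16a1 the median was 0.26, and DESeq2 called 4 as higher. Among 12 amino acid exchangers DESeq2 called only Slc7a1, a carrier of cationic amino acids, with 0.63 ± 0.18, and the median was 0.09. Among 8 organic anion carriers that passed the filter it called none, and the median was also 0.09. It called none of 10 lipid carriers and relatives of Mfsd2a, whose median was 0.01. In these 6 families the transporters of the barrier therefore had larger fold changes than the median of their relatives, a description of lists chosen by name and without a test of the difference.

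**Figure D5:**
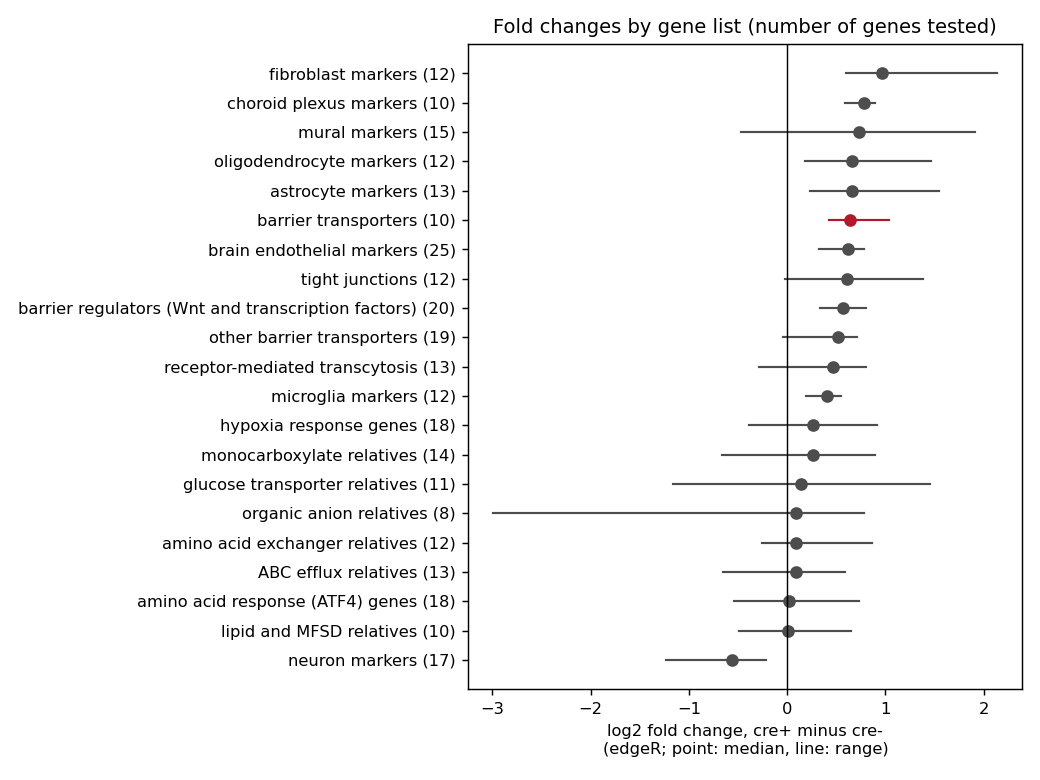
Median (point) and range (line) of the edgeR log2 fold changes, cre+ minus cre-, over the tested genes of each list, with their number in parentheses. The transporters (red, median 0.64) lie next to the endothelial markers (0.62), above their family relatives (0.01 to 0.26) and opposite to the neuron markers (-0.56).

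The genes whose pattern over the 7 libraries was most like that of Slc2a1 were taken by the smallest root mean square distance of log2 CPM, each centered on its cre- mean, among 11284 genes with a mean of at least 10 CPM. They were Itih5 (distance 0.098), Ecm2 (0.159), Selenop (0.16), Suclg2 (0.173) and Hspb8 (0.177). Itih5, a heavy chain of the inter-alpha-trypsin inhibitor family, was at 588.9, 609.8 and 608.0 CPM in cre+ and at 251.2, 269.7, 300.9 and 406.2 CPM in cre- libraries. Like Slc2a1 it was not highest in cre+ replicate 1. Selenop, the selenium carrier of plasma, was highest in cre+ replicate 2, with 1543 CPM, as Slc2a1 was. All of these distances come from the same 7 libraries and are a description.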

How the data were processed

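RNA from neurons of 3 cre+ and 4 cre- mice was sequenced from poly(A) libraries as paired reads. According to the methods of the study and to the processing notes of the submitters, reads were trimmed with fastp, checked with FastQC, aligned to GRCm39 with STAR, filtered with SAMtools, counted with StringTie and tested with DESeq2. The sources used here name no tool version, strand setting or annotation release. The authors deposited whole-number counts per gene, with 68213223 to 94376841 counts per library, and a normalized signal for each gene, equal to the count over 1 factor per library (0.916 to 1.108). Each file holds 46382 rows, and 49 repeated rows with identical values were dropped. Files name 1 library each, and there were 0 further sample columns. The study gives mice as replicates, so p-values measure the spread between animals. It describes the mice as littermates, but the sample labels name no litter, so litter was not part of the test.

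Counts were tested with the quasi-likelihood test of edgeR 4.0.16 in R 4.3.3 (filterByExpr, TMM, robust) with Benjamini-Hochberg adjustment over 21542 genes at 0.05. DESeq2 1.42.0 was applied to the 29539 genes that had any count, of which 16345 received an adjusted p. The methods were run on simulated counts in which genes varied independently. That simulation held no shift shared by many genes of a library, so it does not bear on differences in cell content. CPM use TMM factors, and log2 CPM a prior count of 2. For the endothelial scale, size factors were medians of ratios over 25 endothelial markers. Transcript lengths, overlaps and windows came from GENCODE M39 on GRCm39. Alternatives included other scalings and filters, limma-voom (limma 3.58.1), covariates, each library left out, and a replicate block. Same-numbered libraries of the 2 genotypes correlated at -0.027, -0.004 and 0.088 in their deviations from the group means, so the numbers were not taken as pairs.

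The transporters and the 20 further gene lists were chosen with earlier results of these data known. Named were all 10 transporters, at most 4 genes with the smallest edgeR p of each further list, Abcb1b, Bsg, and the 5 genes closest to Slc2a1. Il4ra and overlapping genes were added as checks. Cldn5 and Vegfa were added to show members of their lists that differed from those named. One gene that this rule names is not reported here.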

Additional observations from a re-analysis of the deposited data

Results flagged for a closer look

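Among the 10 transporters, the 4 cre- libraries were examined for a library whose gap to the nearest other, relative to the whole range of the group, passed Dixon's critical value. This was so for 1 transporter, Slc16a1, for which cre- replicate 4 stood at 416.0 CPM with a ratio of 0.841. Chance gives such a gap in about 1 of 20 groups. The same library was the highest of the cre- group for all 10 transporters.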

How the results depend on the processing

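The count of transporters called was 0 under all 20 alternatives run in edgeR or limma-voom, and the lowest adjusted p of any transporter in them was 0.0515. Of 210 log2 fold changes of single transporters under the alternatives, 205 were positive and 5 reversed. With the level of endothelial markers as a covariate, Abcc4 reversed to -0.13, the median log2 fold change was 0.26, 2 transporters passed an unadjusted p under 0.05 and DESeq2 called 0. With endothelial-marker scaling, Abcc4 (-0.16), Slc3a2 (-0.02), Slco1a4 (-0.11) and Slco1c1 (-0.02) reversed, the median was 0.05, 2 passed an unadjusted p, 2 had no overlap and DESeq2 called 0. With neuron markers as a covariate the median was 0.39. The cause of these shifts was not tested. Scaling to library totals moved the median of all genes to -0.16 and gave 0.52 for the transporters. With each library left out in turn, the median ran from 0.53 to 0.76, the count at an unadjusted p from 7 to 10, the count without overlap from 7 to 10, and the DESeq2 count from 6 to 10. The replicate block, in which cre- replicate 4 has no partner and so does not bear on the genotype term, gave a median of 0.76, 0 calls in edgeR, 10 at an unadjusted p and 10 in DESeq2. It made DESeq2 call Abcc4 and Slco1a4 as well and changed no other call. For the covariate, leave-one-out and block fits, the share of all genes passing in the same direction or free of overlap was not computed. The counts of transporters in these fits therefore have no share to be set against, and freedom from overlap is easier to reach with fewer libraries. Over all genes DESeq2 called 1990 genes, and 172 with the endothelial covariate and 6185 with the endothelial scaling. It called 1103 without cre+ replicate 1, 2210 without cre- replicate 4 and 1543 with the replicate block. Alternatives chosen after seeing the data left out cre+ replicate 1 and cre- replicate 4 together (median 0.66) and varied the endothelial scale, on which the median stayed between 0.02 and 0.12, Slc2a1 between 0.29 and 0.60 and Mfsd2a between 0.35 and 0.54. A lost call here does not show that levels were equal.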

Other observations

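Slc2a1 is a known target of the hypoxia response, and Slc7a5 and Slc3a2 of the amino acid response through ATF4, and gene lists of both responses were described as well. Of 18 hypoxia response genes, 16 had a positive log2 fold change, the median was 0.26, and DESeq2 called 4 as higher in cre+ and 0 as lower. At an unadjusted p under 0.05 in edgeR, 6 were higher and 1 was lower, Vegfa with a log2 fold change of -0.39 ± 0.17. Ndrg1 was at 568.8 ± 83.9 CPM (SD, n = 3) and 326.0 ± 67.04 CPM (SD, n = 4), and Adm, which encodes adrenomedullin, at 12.6 ± 2.10 and 6.75 ± 2.14 CPM. On the endothelial scale the median of this list was -0.30. Of 18 genes of the amino acid response, 9 were positive, the median was 0.02, and DESeq2 called 1, Phgdh, a serine synthesis enzyme, at 40.4 ± 2.55 and 29.7 ± 4.98 CPM. Asns, asparagine synthetase, had a log2 fold change of -0.54 ± 0.22, and the adjusted p-values of edgeR and DESeq2 were 0.216 and 0.121, the opposite direction to Slc7a5 and Slc3a2.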
